A study of Homo sapiens with 16 samples.

Results

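The NRF2 antioxidant targets described here were 9 genes: HMOX1, NQO1, GCLC, GCLM, TXNRD1, SLC7A11, SQSTM1, TXN and KEAP1. They were taken by name from the 30982 gene names on the array, with earlier results of these data known. Every probe that carries one of these symbols and is not a control spot was used, which gave 13 of the 41000 probes on the array. All 13 were among the 40982 probes tested, and none of their spots was marked as an outlier or saturated. GCLC and TXN had 2 probes each, SLC7A11 had 3 and the other 6 genes had 1. The HMOX1 probe was printed on 10 spots of every array, which were averaged. The signal was well above background on every array for 12 of the 13, and on 12 arrays for SLC7A11 A_24_P200420.

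Caco-2 is a human line from a colon carcinoma, used here undifferentiated and as 1 line. The cells were stimulated for 6 h in medium with 1% FCS. PT-G is gliadin, the wheat protein fraction to which patients with coeliac disease react, digested with pepsin and trypsin that were then inactivated by heat. PT is the same digestion without gliadin, p31-43 is a synthetic gliadin peptide used at 150 µg/ml, and MED-CTL cells had medium alone. The doses of PT-G and PT are not given in the sources used here, so these values stand beside those of p31-43 without a match in dose. Each condition had 4 arrays, from 4 independent experiments on a single line, with cells 1 or 2 passages apart. The main fit had no term for experiment, slide or scan day. Its p-values therefore use a spread that also holds those shifts, and they ignore the pairing of arrays. Deviations of arrays on the same slide had a consensus correlation of 0.598. Fits with a block add such a term. All 3 stimulations were compared with the same 4 MED-CTL arrays. Intensities are given as log2 values, so that a difference of 1 is a 2-fold change, and a probe was called at the study's threshold, a nominal p under 0.01.

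The arrays had median intensities between 153 and 410 over a local background between 48 and 65, and 27660 to 33947 of their 45015 spots were well above background. They lay on 5 slides. Slides 1 and 2 were scanned first and slides 3 to 5 on 2 later days, and each of these periods held 2 arrays of every condition. All 7 epithelial and intestinal markers examined were well above background on all 16 arrays. Of 6 markers of other cells, COL1A2 and PTPRC were so on no array, while CD14, CD3E, COL1A1 and PECAM1 were so on all 16. KRT20, a keratin of maturing enterocytes, rose by 0.63 (SE 0.12) after PT-G and by 0.49 (SE 0.12) after PT. It was the 1 of the 7 epithelial markers past the threshold, which 3.43% of all probes passed after PT-G and 3.64% after PT. The median of the 7 was −0.07 after PT-G and −0.18 after PT, with 2 and 1 of them above 0, and their part in the results was not tested.

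NRF2, the product of NFE2L2, is the main transcription factor of the response to oxidants and electrophiles. In resting cells KEAP1 binds it and brings it to the CUL3 ubiquitin ligase for degradation. When reactive cysteines of KEAP1 are modified, NRF2 accumulates, pairs with a small MAF protein (MAFF, MAFG or MAFK) and binds antioxidant response elements. The targets include enzymes of glutathione and thioredoxin metabolism, quinone reduction and haem breakdown, which the intestinal epithelium uses against compounds from food.

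The core of an antioxidant response element is written TGACNNNGC, and these letters were searched on both strands of the RefSeq promoter windows (GRCh38.p14, 250 bases before to 50 after each start site). A window was found for 7 of the 9 genes, and none for HMOX1 and SLC7A11, which were not searched. Of the 7, 3 held the core in at least 1 window, GCLM, KEAP1 and TXNRD1, as did 16.1% of all 27305 genes with a window. Sequence outside the windows was not searched, so a gene without a match may hold the element elsewhere. Whether these matches bear on the levels below was not tested. The matches are shown in the direction of the gene with the core in capitals, and positions count its first base from the start site.
GCLM, chr1:93909446-93909474, minus strand, position −34: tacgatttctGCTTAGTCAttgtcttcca
KEAP1, chr19:10502807-10502835, minus strand, position −54: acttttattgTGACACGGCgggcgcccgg
KEAP1, chr19:10502784-10502812, minus strand, position −31: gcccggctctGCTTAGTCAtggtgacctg
TXNRD1, chr12:104215670-104215698, plus strand, position −99: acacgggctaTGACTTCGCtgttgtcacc
TXNRD1, chr12:104215761-104215789, plus strand, position −8: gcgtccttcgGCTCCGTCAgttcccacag
TXNRD1, chr12:104286920-104286948, plus strand, position −102 from another start: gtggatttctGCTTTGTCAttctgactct
The related AP-1 letters TGANTCA, which can overlap the core, were in a window of 9.37% of all genes and of 0 of the 7 members with a window. These are matches of letters only, and no binding was measured.

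After 6 h, no NRF2 target passed the threshold against medium under any of the 3 stimulations in the fit without blocks. With a block for replicate, slide, scan period or run, KEAP1 passed it after PT-G (nominal p 0.00271 to 0.00482, and 0.0116 with slide as a random block), and with the run block GCLM passed it after PT (nominal p 0.00538). The run is a date that the name of each array carries, and was added as a block after the data had been seen. In these bulk samples fewer expressing cells and less RNA per cell cannot be told apart. Among the 13 probes, 0 passed the threshold after PT-G (3.43% of all probes tested did), 0 after PT (3.64% of all) and 0 after p31-43 (0.403% of all). At an unadjusted p under 0.05, limma counted 0 of 13 after PT-G (7.94% of all), 1 after PT (8.95%) and 0 after p31-43 (2.15%), and the 1 was GCLM. The median difference of the 13 probes from MED-CTL was 0.02 after PT-G, −0.07 after PT and −0.03 after p31-43, beside −0.006, −0.012 and −0.003 over all probes. Between PT-G and PT, 1 of the 13 probes differed (0.0903% of all probes did), the GCLM probe, which was higher after PT-G. At an unadjusted p under 0.05 there were 2 (0.761% of all), GCLM and a GCLC probe. With an adjusted p under 0.05, 0 of the 13 were found in each of these 4 comparisons, while 0.930% of all probes were after PT-G, 0.830% after PT, and 0% after p31-43 or between PT-G and PT.

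**Figure D1:**
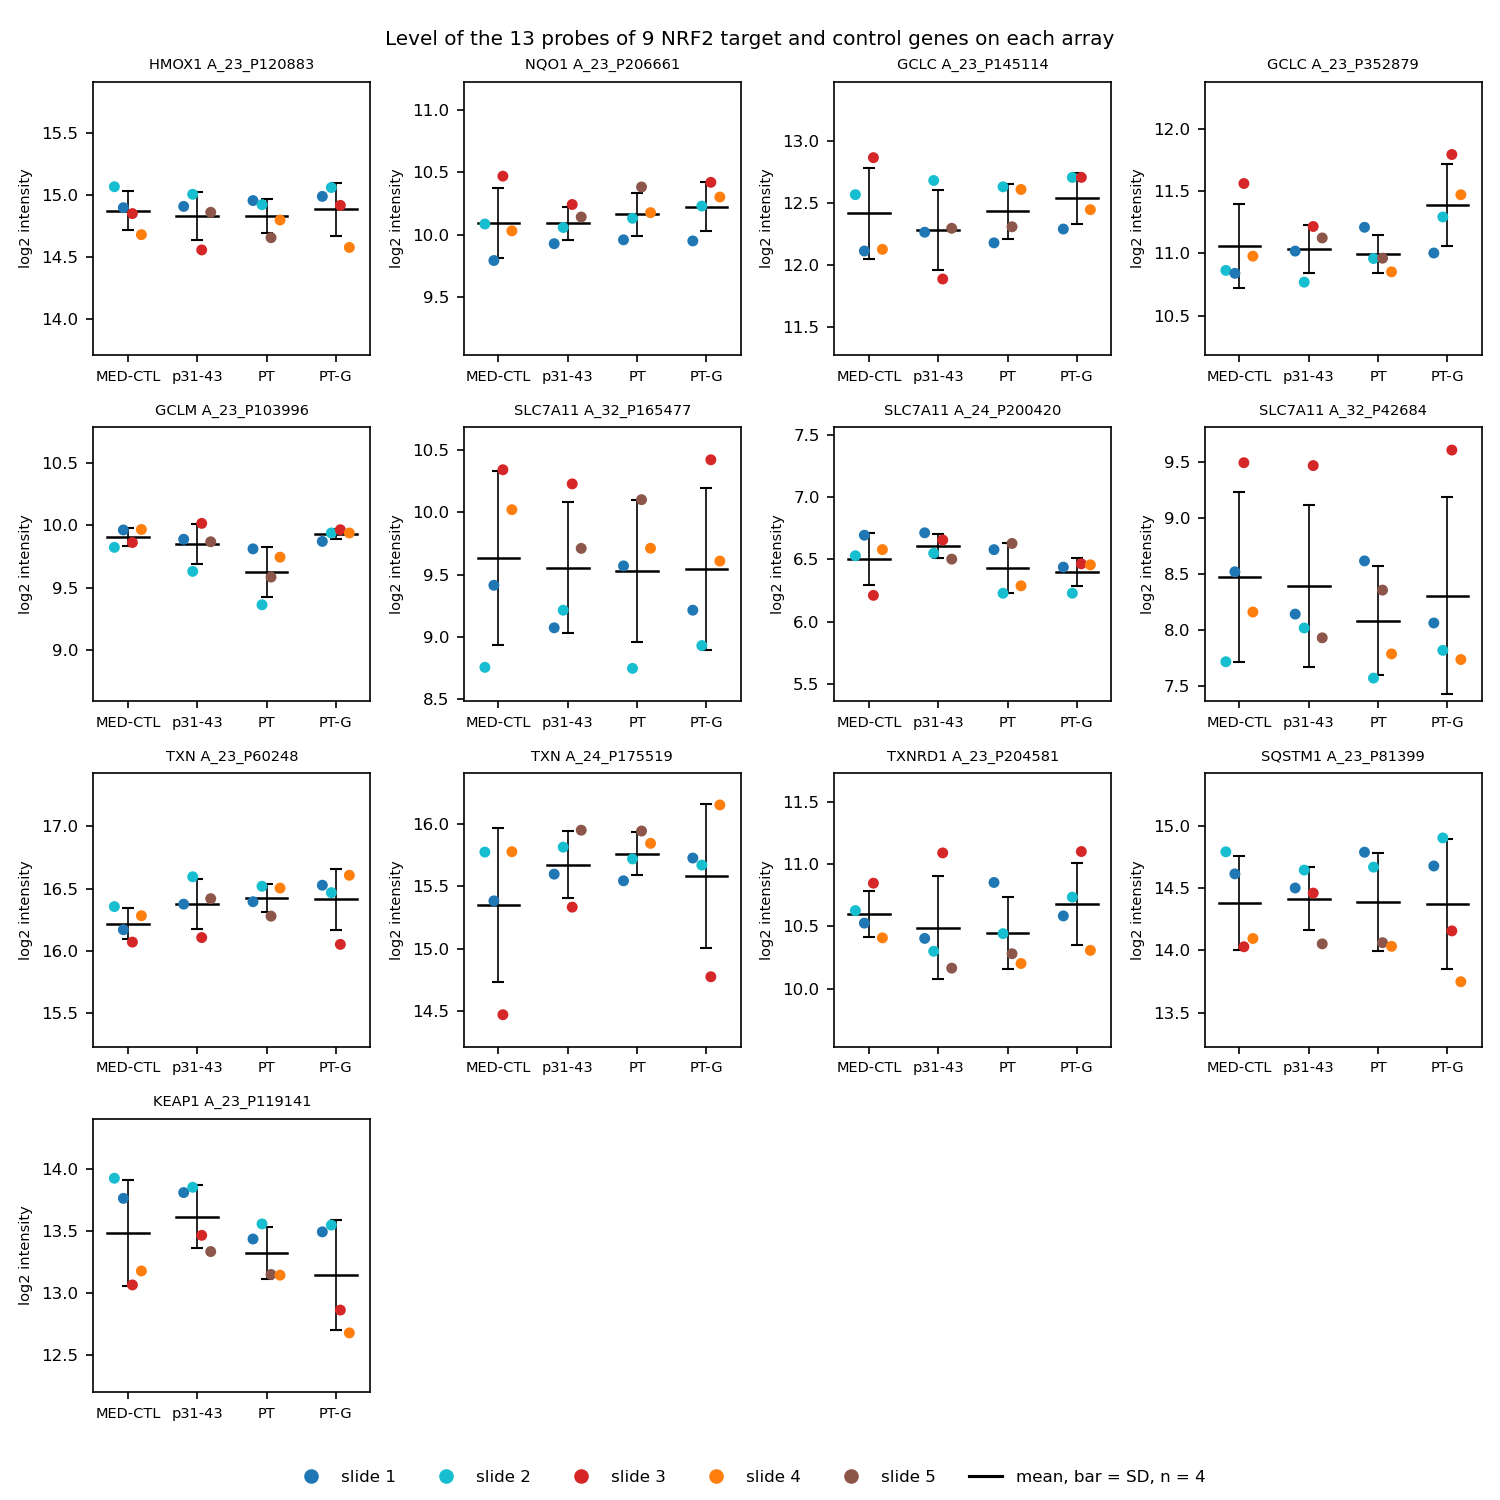
Log2 intensity of the 13 probes on each of the 16 arrays (points, coloured by slide) by condition, with the mean of 4 arrays (line) and the SD (bar); each panel spans at least 2.2 log2 units. Conditions overlap in most panels, the 4 PT arrays of GCLM lie below the 4 MED-CTL arrays, and within each condition the KEAP1 and SQSTM1 arrays of slides 1 and 2 lie above the others.

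HMOX1 encodes haem oxygenase 1, which breaks haem down to biliverdin, iron and carbon monoxide, and is among the most inducible NRF2 targets. Its level was 15.06, 14.90, 14.85 and 14.68 in MED-CTL, 14.99, 15.06, 14.91 and 14.58 after PT-G, 14.95, 14.92, 14.65 and 14.80 after PT, and 14.91, 15.00, 14.56 and 14.86 after p31-43. The 4 conditions overlapped throughout, with means from 14.83 to 14.88. The difference from MED-CTL was 0.01 after PT-G (95% confidence interval −0.25 to 0.28), −0.04 after PT (−0.31 to 0.23) and −0.04 after p31-43 (−0.31 to 0.23). On a linear scale the PT-G interval runs from 0.839 to 1.21 times the MED-CTL level. The 10 spots of an array differed from each other with an SD between 0.075 and 0.224, against an SD between arrays of one condition of 0.14 to 0.21.

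NQO1, the quinone reductase that is often read as a marker of NRF2 activity, was at 10.09, 9.79, 10.47 and 10.03 in MED-CTL and at 9.95, 10.23, 10.42 and 10.30 after PT-G. Its PT arrays were at 9.96, 10.13, 10.38 and 10.18, and its p31-43 arrays at 9.93, 10.06, 10.24 and 10.14. All of these ranges overlapped. The differences from MED-CTL were 0.13 (interval −0.17 to 0.43), 0.07 (−0.23 to 0.37) and −0.002 (−0.30 to 0.30).

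Glutamate-cysteine ligase makes the first and limiting step of glutathione synthesis from a catalytic subunit, GCLC, and a modifier subunit, GCLM. The GCLM probe was at 9.82, 9.96, 9.86 and 9.97 in MED-CTL and at 9.87, 9.94, 9.96 and 9.94 after PT-G. After PT it was at 9.81, 9.36, 9.58 and 9.74, and after p31-43 at 9.89, 9.63, 10.02 and 9.87. All 4 PT arrays lay below all 4 MED-CTL arrays, though the highest PT array and the lowest MED-CTL array were nearly level, and below all 4 PT-G arrays.

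Against MED-CTL, GCLM was at −0.28 after PT (SE 0.098), or 0.824 times the MED-CTL level, with a nominal p of 0.0132 in limma and an adjusted p of 0.317. It passed the threshold in 5 of 31 other settings, among them the run block, slide as a random block (nominal p 0.00364) and array weights. Among all probes, 2.76% had all PT arrays below all MED-CTL arrays. Against PT, GCLM was 0.30 higher after PT-G (SE 0.098, interval 0.09 to 0.51, nominal p 0.00805, adjusted p 1.00), and 0.425% of all probes had all PT-G arrays above all PT arrays. The PT-G level itself was 0.02 from MED-CTL (interval −0.19 to 0.23). By mean level the order was PT-G, MED-CTL, p31-43 and PT, and the ranges of the first 3 overlapped. On the 3 slides with both arrays the PT array was lower than the MED-CTL array, by −0.46, −0.15 and −0.22. The call between PT-G and PT was made in 15 of 31 other settings and lost in the rest. It had a nominal p of 0.0316 without PT replicate 2, its lowest array, with the difference then 0.22.

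The GCLC subunit had 2 probes. The first, A_23_P352879, was at 10.86, 10.84, 11.56 and 10.98 in MED-CTL, 11.00, 11.29, 11.80 and 11.47 after PT-G, and 11.21, 10.96, 10.96 and 10.85 after PT. The PT-G array was higher than the MED-CTL array of its slide on 4 of 4 slides, by 0.16 to 0.49. The difference was 0.33 (SE 0.18, nominal p 0.0893, adjusted p 0.776), and 0.50 with a nominal p of 0.00838 without MED-CTL replicate 3, the high array. Between PT-G and PT it was 0.40 (SE 0.18, nominal p 0.0463, adjusted p 1.00). The other GCLC probe, A_23_P145114, differed from MED-CTL by 0.12 after PT-G (SE 0.19) and from PT by 0.11 (SE 0.19). After p31-43 the 2 probes were at −0.03 and −0.14.

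**Figure D2:**
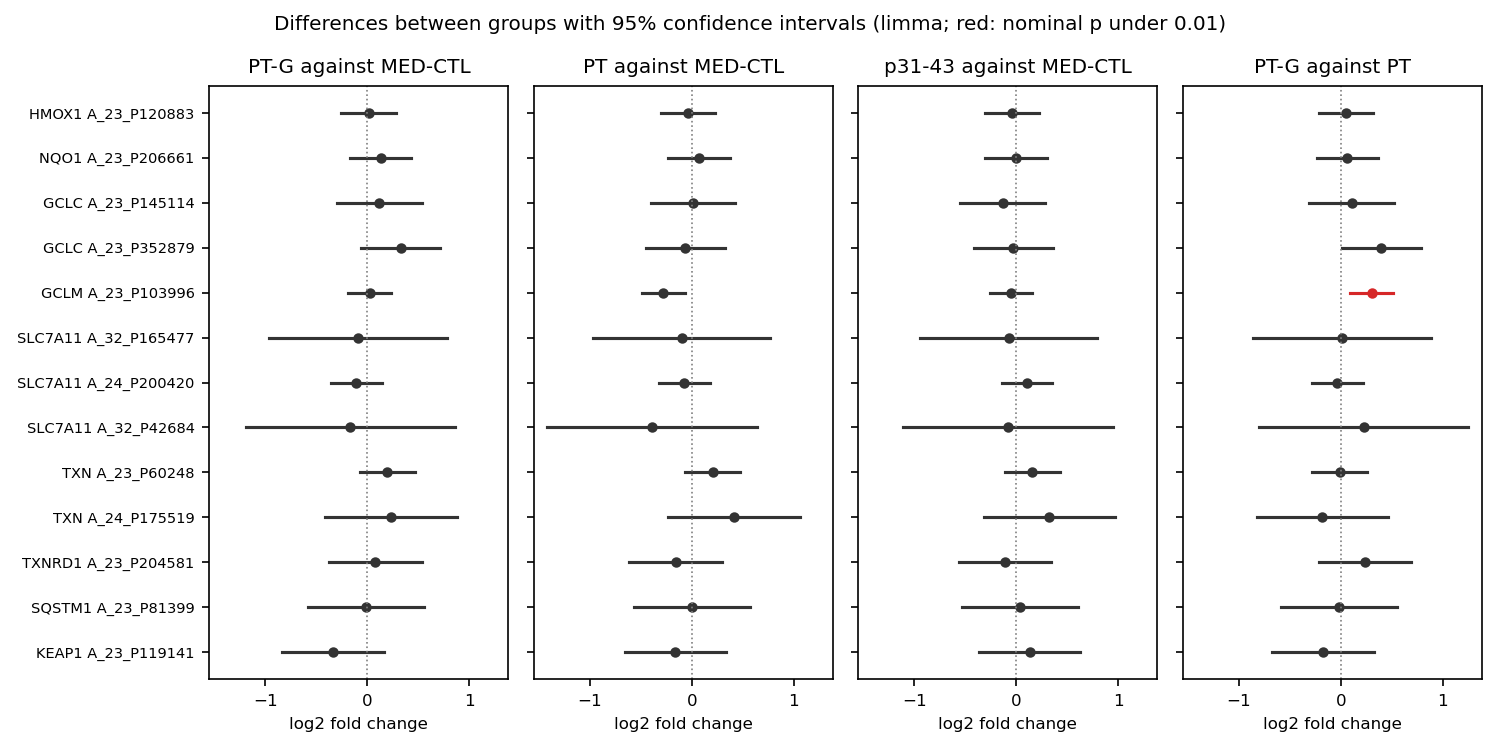
Log2 fold change (point) and 95% confidence interval (line) of each of the 13 probes in 4 comparisons, from limma on 4 arrays per condition, with nominal p under 0.01 in red. The 1 red interval is that of GCLM between PT-G and PT (0.30), and the SLC7A11 probes A_32_P165477 and A_32_P42684 have the widest intervals.

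SLC7A11 is the cystine-glutamate exchanger that supplies cysteine for glutathione. Its 3 probes gave differences from MED-CTL of −0.09, −0.17 and −0.11 after PT-G, −0.10, −0.39 and −0.07 after PT, and −0.08, −0.08 and 0.10 after p31-43, in the order A_32_P165477, A_32_P42684 and A_24_P200420. The standard errors of the first 2 were 0.41 and 0.48, so that A_32_P42684 after PT had an interval from −1.42 to 0.64. The spread lay between slides: A_32_P42684 was at 9.50, 9.61 and 9.47 on the MED-CTL, PT-G and p31-43 arrays of slide 3, and at most 8.62 on the other 13 arrays. A_24_P200420 was the dimmest reading of the gene, at 6.23 to 6.47 after PT-G and at 6.50 to 6.71 after p31-43. These PT-G arrays lay below the p31-43 arrays, as they did for 2.80% of all probes, with a difference of −0.21 (SE 0.11, nominal p 0.0908).

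Thioredoxin (TXN) reduces protein disulphides and is itself reduced by thioredoxin reductase 1 (TXNRD1). The TXN probe A_23_P60248 was at 16.36, 16.17, 16.07 and 16.28 in MED-CTL, 16.53, 16.47, 16.05 and 16.61 after PT-G, 16.40, 16.52, 16.28 and 16.50 after PT, and 16.38, 16.60, 16.11 and 16.42 after p31-43. The treated means were 0.19, 0.21 and 0.16 above MED-CTL (SE 0.13), and the ranges overlapped. On same-slide pairs it was higher in 3 of 4 for PT-G, 3 of 3 for PT and 3 of 3 for p31-43. The second TXN probe, A_24_P175519, gave 0.23, 0.41 and 0.32 (SE 0.30), with its lowest values, 14.47 in MED-CTL, 14.77 after PT-G and 15.33 after p31-43, again on slide 3. TXNRD1 lay between 10.16 and 11.10 on all arrays, and its differences from MED-CTL were 0.08 after PT-G, −0.16 after PT and −0.11 after p31-43 (SE 0.21).

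SQSTM1 (p62) is an autophagy receptor that sequesters KEAP1 and is also a target of NRF2. Its differences from MED-CTL were −0.01 after PT-G, 0.005 after PT and 0.03 after p31-43 (SE 0.27). Its arrays ranged from 13.75 to 14.90 within PT-G alone.

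KEAP1 is the inhibitor in the list. It was at 13.92, 13.76, 13.07 and 13.18 in MED-CTL, 13.49, 13.55, 12.87 and 12.68 after PT-G, 13.44, 13.56, 13.15 and 13.15 after PT, and 13.81, 13.85, 13.47 and 13.34 after p31-43. In each condition the first 2 of these arrays, from slides 1 and 2, were higher than the other 2, and the conditions overlapped. In the fit without slides the difference from MED-CTL was −0.34 after PT-G (SE 0.23, nominal p 0.168, adjusted p 0.912), −0.16 after PT and 0.13 after p31-43.

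Compared within slides, the PT-G array had less KEAP1 than the MED-CTL array on 4 of 4 slides, by −0.38, −0.27, −0.20 and −0.50 (mean −0.34, SD 0.13). The PT array had less on 3 of 3, by −0.37, −0.33 and −0.03. The p31-43 array was at −0.07, 0.05 and 0.40. By the replicate number the labels pair MED-CTL arrays 1 and 2 with PT-G arrays of the other run. With the replicate number as a block, which keeps that mismatch, KEAP1 fell after PT-G with a nominal p of 0.00482 and an adjusted p of 0.0856. In that fit 7.58% of all probes passed the threshold. With the slide as a block the nominal p was 0.0039 and the adjusted p 0.0443, with 12.2% of all probes past the threshold, and with the run as a block they were 0.00336 and 0.0554, with 9.11%. Over the 31 other settings the difference stayed between −0.48 and −0.18, with 4 past the threshold, all of them fits with a block, and adjusted p-values from 0.0443 to 1.00.

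**Figure D3:**
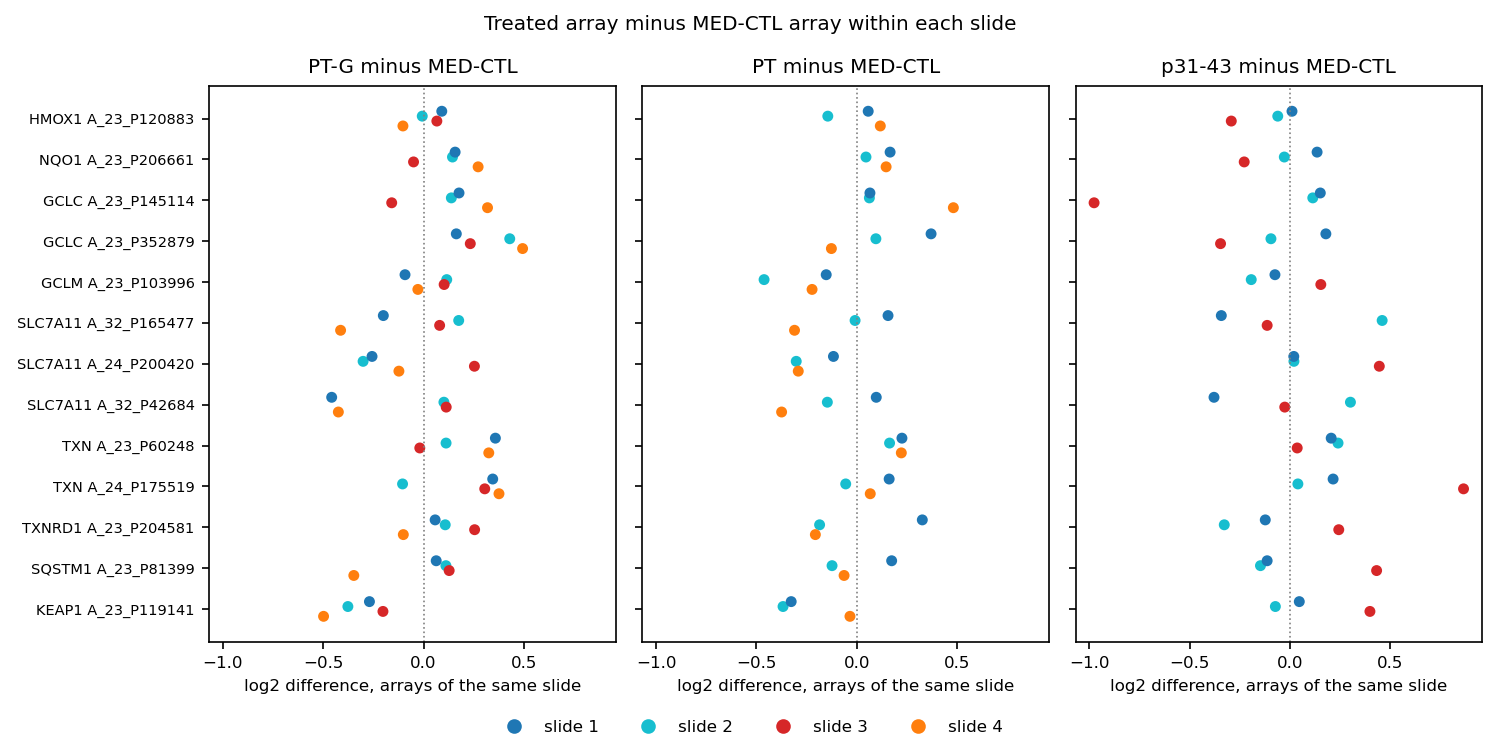
Treated minus MED-CTL log2 intensity for pairs of arrays on the same slide, for the 13 probes (rows) and 3 stimulations (panels), with points coloured by slide. KEAP1 is below 0 in 4 of 4 PT-G pairs and 3 of 3 PT pairs, and GCLM is below 0 in 3 of 3 PT pairs.

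Whether the digests differed from the peptide was tested directly, as PT-G minus p31-43 and PT minus p31-43. Of the 13 probes, 0 passed the threshold in the first (3.70% of all probes did) and 0 in the second (3.14% of all). With an adjusted p under 0.05 there were 0 in both, against 1.15% and 0.749% of all. At an unadjusted p under 0.05, limma counted 0 (8.53% of all) and 1 (7.11%), the 1 being GCLM at −0.23 (SE 0.098, nominal p 0.0375). KEAP1 had a difference of −0.47 between PT-G and p31-43 (SE 0.23, nominal p 0.0625), and with the replicate block its nominal p was 4.6e-04 and its adjusted p 0.0190. With the run block they were 2.9e-04 and 0.0108. For PT-G against MED-CTL both blocks also raised the share of all probes past the threshold, as given above. The adjusted p of this difference ranged from 0.0108 to 0.928 over 30 other settings.

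Several members differed between the arrays scanned first and those scanned later. With period as a term beside condition, a test added after the data had been seen, 5 of the 13 probes had an adjusted p under 0.05, as did 25.9% of all probes, and the same number passed the nominal threshold (24.2% of all). SQSTM1 was higher on the 8 early arrays by 0.62 (SE 0.089, adjusted p 0.000258), with 14.50 to 14.90 early and 13.75 to 14.46 late. KEAP1 was higher by 0.56 (SE 0.065) and HMOX1 by 0.24 (SE 0.061). In the other direction SLC7A11 A_32_P165477 was at −0.90 (SE 0.16), with 8.75 to 9.57 early and 9.61 to 10.42 late, and NQO1 at −0.25 (SE 0.074). SQSTM1 and A_32_P165477 were the 2 of 13 whose early and late arrays did not overlap, against 6.30% of all probes.

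The effect of the digests, the mean of PT-G and PT minus MED-CTL, was then taken in each period. The difference between periods passed the threshold for 0 of the 13 probes (0.839% of all), by limma also 0 at an unadjusted p under 0.05. Within the early arrays KEAP1 fell by 0.34 after the digests (SE 0.084, nominal p 0.00267, adjusted p 0.116), the 1 of 13 probes past the threshold there against 4.18% of all. Within the late arrays its difference was −0.16 (SE 0.084, nominal p 0.0831), and 0 of 13 passed, against 3.34% of all. The periods themselves differed by 0.17 (SE 0.12, nominal p 0.179), so the KEAP1 effect is not shown to differ between them.

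**Figure D4:**
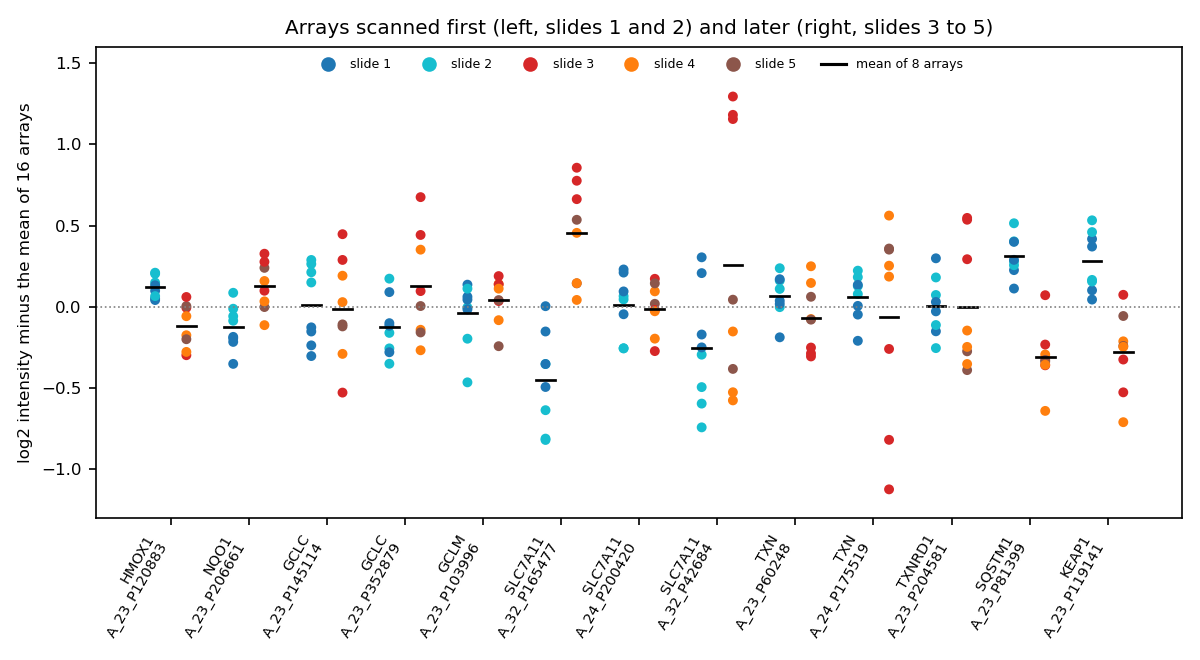
Log2 intensity minus the mean of the 16 arrays for each probe, with the 8 arrays scanned first at the left (slides 1 and 2) and the 8 scanned later at the right (slides 3 to 5), and the mean of each 8 as a line. SQSTM1 and KEAP1 are higher on the first arrays by 0.62 and 0.56, and SLC7A11 A_32_P165477 is lower.

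Across the 16 arrays, KEAP1 and SQSTM1 had the highest correlation of the member pairs (r = 0.825, brightest probe of each gene), followed by HMOX1 with SQSTM1 (0.720). SLC7A11 with KEAP1 had the lowest (−0.701). Among 11632 other genes, those most like KEAP1 were PEF1 (r = 0.980), COMMD7 (0.967) and PAPOLA (0.966). Those most like TXN were TCEB2 (0.949), HIST2H2AC (0.943) and RPL24 (0.928), and those most like GCLM were ADM (0.749), MYEF2 (0.740) and USP25 (0.731). These values describe 16 arrays that share slides, runs and scan days.

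Of the other genes on the pathway lists, which also hold other oxidant genes, 72 were measured. After PT-G 4 rose and 2 fell (3.43% of all probes passed), after PT 3 rose and 2 fell (3.64%), and 0 passed the threshold after p31-43 (0.403%) or between PT-G and PT (0.0903%). Those called after PT-G were NFE2L2, MAFF, MAFG and OXSR1, higher, and TXNIP and SESN1, lower. Their median difference from MED-CTL was 0.07 after PT-G, 0.12 after PT and 0.08 after p31-43, beside the medians of all probes given above. With the replicate block the count was 7 higher and 3 lower after PT-G, where 7.58% of all probes passed, and 8 higher and 3 lower after PT, where 8.45% did. After p31-43 it became 3 with the slide block (3.72% of all). The lists of 18 glutathione genes, 12 of quinone and carbonyl detoxification, 6 of NADPH supply, 6 of haem and iron handling and 5 efflux pumps each had 0 past the threshold in all 4 comparisons. These counts of 0 are from the fit without blocks.

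Among the genes that control NRF2 itself, 3 of 8 rose after PT-G (3.43% of all probes passed) and 3 after PT (3.64%): NFE2L2, MAFF and MAFG. NFE2L2, probe A_23_P5761, was at 13.03, 12.97, 13.04 and 13.43 in MED-CTL, 13.67, 13.62, 14.01 and 14.17 after PT-G, 13.73, 13.39, 13.93 and 13.69 after PT, and 13.15, 13.16, 13.50 and 13.53 after p31-43. The means were 13.11, 13.87, 13.69 and 13.34 in the same order. The rise was 0.75 after PT-G (SE 0.16, adjusted p 0.0363) and 0.57 after PT (SE 0.16, nominal p 0.00256, adjusted p 0.138). The call after PT was lost with processed signal (nominal p 0.0144) and without PT replicate 3 (nominal p 0.0106), and p31-43 was at 0.22 (nominal p 0.176). A second NFE2L2 probe, A_24_P936444, had differences of −0.001 after PT-G and 0.12 after PT (SE 0.17).

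The small MAF proteins are the partners of NRF2 on DNA. MAFF was at 10.57, 10.07, 9.55 and 9.29 in MED-CTL, 11.90, 11.99, 11.60 and 11.28 after PT-G, and 12.11, 11.75, 11.02 and 11.42 after PT. It rose by 1.82 after PT-G (SE 0.37, adjusted p 0.032) and by 1.70 after PT (adjusted p 0.049), and p31-43 was at −0.13. MAFG rose by 0.84 after PT-G (SE 0.17, adjusted p 0.033) and by 0.78 after PT (adjusted p 0.0511), and its second probe by 0.92 and 0.87. MAFK was at 0.74 and 0.68 (SE 0.28, nominal p 0.0192 and 0.0292). It passed the threshold with the replicate block (nominal p 4.5e-05 after PT-G) and with the run block (3.8e-06). Its second probe, A_23_P111698, was at 0.27 and 0.16 (nominal p 0.0775 and 0.263). BACH1, which competes with NRF2 at some elements, was at 0.28 after PT-G and 0.08 after PT (SE 0.23). CUL3 was at 0.15 and 0.02 and NFE2L1 at −0.17 and 0.06, and neither passed. Other NFE2L1 probes were at −0.39, −0.31 and 0.87 after PT-G (SE 0.24, 0.28 and 0.54) and at −0.39, −0.36 and 0.80 after PT, and none passed. RBX1, a subunit of the CUL3 ligase, was at 0.10, at 0.41 and, after p31-43, at 0.47 (SE 0.30, nominal p 0.131), and the last passed with the slide block (0.53, nominal p 0.000146) and with slide as a random block (nominal p 0.00384).

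**Figure D5:**
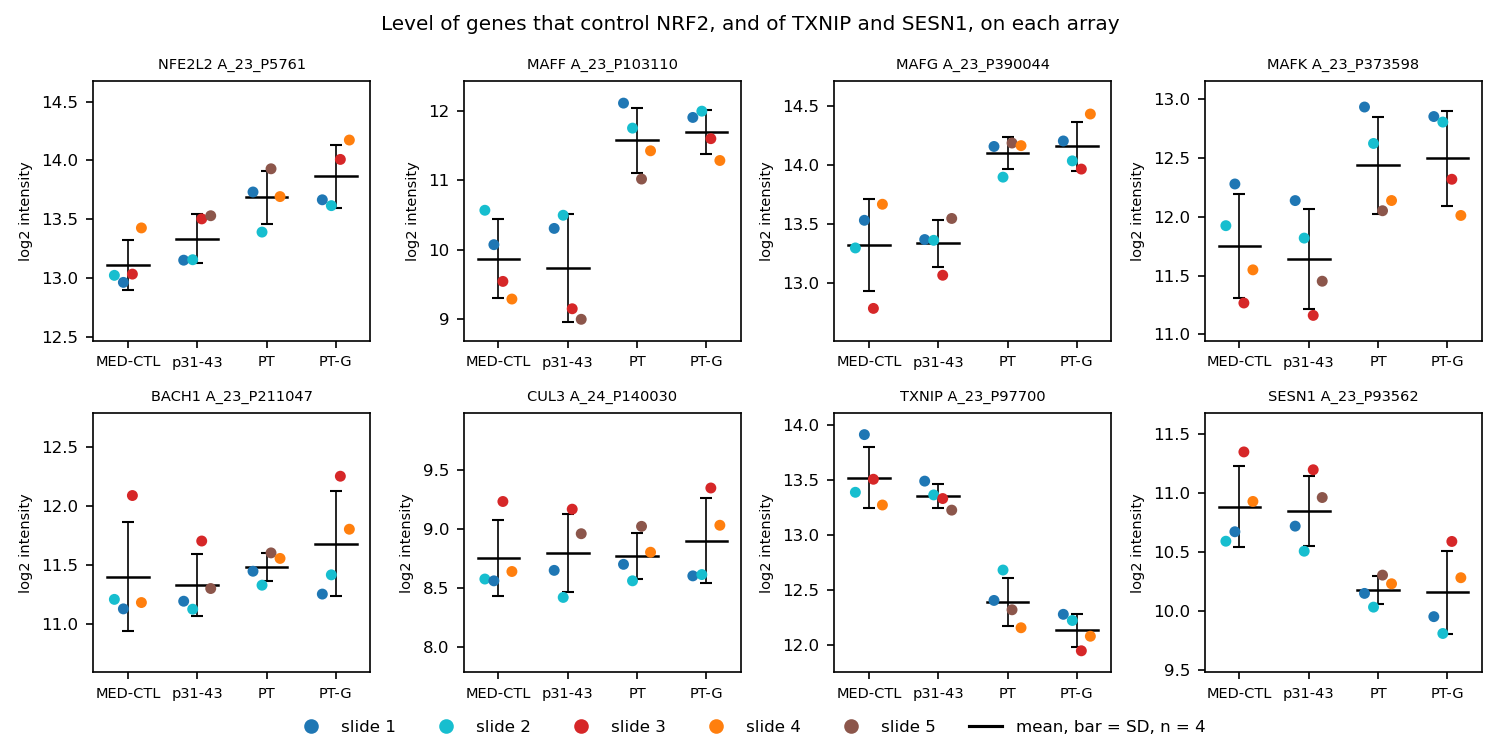
Log2 intensity on each of the 16 arrays (points, coloured by slide) by condition, with mean (line) and SD (bar) of 4 arrays, for 6 genes that control NRF2 and for TXNIP and SESN1. MAFF and MAFG have higher means and TXNIP has a lower mean after both digests than in MED-CTL and after p31-43.

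Elsewhere on the lists TXNIP, which binds and inhibits thioredoxin, fell by 1.39 after PT-G (SE 0.14, adjusted p 0.000378) and by 1.13 after PT (adjusted p 0.00195). Its arrays were at 13.39, 13.92, 13.51 and 13.28 in MED-CTL, 12.28, 12.23, 11.95 and 12.08 after PT-G, and 12.41, 12.69, 12.32 and 12.16 after PT. TXNIP was the 1 of 10 genes of thioredoxin and peroxiredoxin function past the threshold, which 3.43% of all probes passed after PT-G and 3.64% after PT. Among 7 other oxidant genes, SESN1, a sestrin, fell by 0.73 after PT-G (SE 0.20, nominal p 0.00239, adjusted p 0.132) and by 0.71 after PT (nominal p 0.00296, adjusted p 0.149). The second SESN1 probe was at −0.64 and −0.72 and did not pass (limma nominal p 0.0300 and 0.0169). OXSR1, a stress-responsive kinase, rose by 0.39 after PT-G (SE 0.10, nominal p 0.00182, adjusted p 0.114), while its second probe was at 0.14.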

How the data were processed

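RNA of 16 Caco-2 cultures was hybridised to Agilent one-colour arrays and read with Feature Extraction 9.5.3.1 per the file headers. The deposited intensity of each spot is linear, as median and mean foreground and local background, without normalization between arrays, and the deposited processed intensity is background-subtracted and detrended. The deposited log2 values, used here, are the median foreground intensity after quantile normalization by the authors with limma without background correction, and were recomputed from the intensities to within 5e-09. The deposited marks for controls, outliers, saturation and signal above background were used as given. Groups came from the labels.

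Here 1639 control spots and 1774 spots marked as outliers were left out, spots of a probe were averaged, and 18 probes with fewer than 3 arrays in a group were dropped. limma 3.58.1 (R 4.3.3) fitted the 4 groups together on 40982 probes (12 residual and 1.90 prior degrees of freedom), with 2-sided moderated tests and Benjamini-Hochberg adjustment over all probes within each comparison. An exact permutation test of 4 arrays against 4 cannot go below p = 0.0286 and was not used. The script was tested on simulated data. The number of arrays limits the precision.

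The members and gene lists were chosen with earlier results of these data known. All probes of the 9 members are described, and they are named in the text where a member had several. Genes of the pathway came from lists (control of NRF2, glutathione, thioredoxin and peroxiredoxin, NADPH supply, detoxification, haem and iron, efflux, other oxidant genes, and ATF4 and heat shock genes as other stress programmes), each read by its brightest probe, with those past the threshold named, at most 3 per list and comparison, and all genes of NRF2 control. Genes most like a member were taken for the 3 members whose brightest probe had the smallest p in a comparison with MED-CTL. Promoter windows and their coordinates come from RefSeq, GRCh38.p14. Genome positions of the probes were not used here.

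Deviations from group means were correlated between arrays with the same replicate number in the labels. For PT-G with MED-CTL they were 0.396 to 0.857 and for p31-43 with MED-CTL 0.262 to 0.706. For PT with MED-CTL they were −0.003 to 0.412 and for PT-G with PT 0.052 to 0.696. The replicate block follows these numbers, so it joins MED-CTL replicates 1 and 2 with treated arrays of another run. The dates in the names of the arrays (runs) cross MED-CTL replicates 1 and 2 of the labels; by run the correlations were 0.629 to 0.857 for PT-G and 0.538 to 0.706 for p31-43 with MED-CTL. Alternatives were other normalizations and background corrections, the mean foreground, a filter on dim probes, outlier marks kept, blocks for replicate, slide, scan period and run, the variance model, the 2 groups alone, and each array left out.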

Additional observations from a re-analysis of the deposited data

Results flagged for a closer look

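Within groups of 4 arrays, 2 of 52 combinations of probe and condition had an array far from the other 3 by Dixon's ratio, where chance flags about 1 group in every 20. SLC7A11 A_32_P42684 was at 9.47 in p31-43 replicate 3 and at 8.14 in the next highest p31-43 array (ratio 0.862). The MED-CTL and PT-G arrays of the same slide were also the highest of their groups, at 9.50 and 9.61. SLC7A11 A_24_P200420, the probe near background on some arrays, was at 6.23 in PT-G replicate 2 and at 6.44 in the next lowest PT-G array (ratio 0.888).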

How the results depend on the processing

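No call of a member probe changed direction: over the other settings, 2357 values for the 13 probes kept their side of the threshold, 16 lost it and 19 gained it. The 0 calls of p31-43 against MED-CTL, and the 0 for the difference of the digest effect between periods, held in every setting run. Between PT-G and PT the 1 call, GCLM, became 0 with median scaling, processed signal, mean foreground, the filter on dim probes, an intensity trend and only the 2 groups, and ranged from 0 to 1 when single arrays were left out (0 in 10 of 16). For PT-G against MED-CTL 0 became 1 with the replicate, slide, period and run blocks (KEAP1 in each), and 0 to 1 when arrays were left out. For PT against MED-CTL 0 became 1, GCLM, with the run block, slide as a random block and array weights, and 0 to 1 when arrays were left out, 1 without PT replicate 1 or p31-43 replicate 2. For PT-G minus p31-43 0 became 1, KEAP1, with the replicate, slide, period, run and random slide blocks. For PT minus p31-43 0 became 1 with the period and run blocks (KEAP1) and the random slide block (GCLM), and 0 to 1 when arrays were left out. The causes were not tested. Over all probes the calls for PT-G against MED-CTL went from 1404 to 3108 with the replicate block and 4996 with the slide block. On the pathway lists the 6 genes called after PT-G became 10 with the replicate block, 18 with the slide block and 15 with the run block. The 5 after PT became 11, 14 and 13. The 0 after p31-43 became 3 with the slide block and 2 with the random slide block. Blocks also raised the calls over all probes, as given above for PT-G against MED-CTL. These gains are therefore not read as particular to the lists. The 3 higher genes of NRF2 control were 3 to 4 after PT-G and 2 to 4 after PT over 31 settings. Median scaling moved the median of all probes by −0.11 for PT against MED-CTL. The run block and the term for period were added after seeing the data. The replicate block changed no other call of a member.

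The limits are 4 arrays per condition from 1 cell line at 1 time, and standard errors from 0.098 to 0.48 for the member probes. The protein and its activity were not measured here.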

Other observations

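Some members are also known targets of other stress programmes, of which 2 lists were examined. Among 8 genes of the ATF4 response, which shares SLC7A11 as a target, ATF3 rose by 1.15 after PT-G (SE 0.14, adjusted p 0.00146) and by 0.87 after PT (adjusted p 0.00852), and the other 7 did not pass the threshold. TRIB3 was 0.65 higher after PT-G than after p31-43 (nominal p 0.00768). Among 6 heat shock genes HSPA6, an inducible chaperone, rose by 1.37 after PT-G (SE 0.21, adjusted p 0.00748) and by 1.53 after PT (adjusted p 0.00402). HSPA1A was 0.59 higher after PT-G (nominal p 0.00693, past the threshold in 24 of 31 other settings) and at 0.53 after PT (nominal p 0.0133). Its 2 other probes were at 0.36 and 0.27 after PT-G (nominal p 0.458 and 0.627). DNAJB1 was 0.66 higher after PT (nominal p 0.000663) and at 0.43 after PT-G (nominal p 0.0133). With the replicate block HSPA1A after PT and DNAJB1 after PT-G also passed (nominal p 0.00613 and 0.000982), as they did with the run block (0.000871 and 0.00142). After p31-43, 0 genes of either list passed by limma's nominal threshold. Of all probes, 3.43% passed it after PT-G, 3.64% after PT and 0.403% after p31-43.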
